A study of Homo sapiens with 11 samples.

Results

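Of the 20052 protein-coding genes in the RefSeq annotation of GRCh38, 5 were chosen by the largest gain of gene body length covered by narrow H3K27ac peaks when 92-1 cells were treated with FHT-1015. They were HMCN1, PCDH7, RPS6KA3, KCNQ5 and SEMA3C, in that order, and a gene body was the whole annotated extent of the gene. 92-1 is an established cell line from a uveal melanoma, a tumour of the pigment cells of the eye. One group was treated for 4 h with DMSO, the solvent, and the other for 4 h with FHT-1015, an inhibitor of both SMARCA4 and SMARCA2, and the labels name this 1 line and no engineered allele for both groups. Chromatin was immunoprecipitated with antibodies against H3K27ac, SMARCA4, MITF, SOX10 and AP-2, the last listed in the labels as TFAP2A, with 1 library for each antibody and condition. There were therefore no replicates, no test was made, and each difference below describes 1 pair of libraries.

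H3K27ac, acetylation of lysine 27 of histone H3, is deposited by the acetyltransferases p300 and CBP and marks active promoters and enhancers. SMARCA4 and SMARCA2 are the alternative ATPase motors of the BAF complexes, which slide and evict nucleosomes and so open DNA to transcription factors. MITF and SOX10 are lineage factors of pigment cells, and AP-2 factors act in the neural crest from which those cells arise. The 5 genes are of unrelated families. HMCN1 encodes hemicentin-1, a large extracellular matrix protein. PCDH7 encodes a protocadherin, a cell adhesion protein of the membrane. RPS6KA3 encodes RSK2, a kinase activated by ERK. KCNQ5 encodes a voltage-gated potassium channel subunit, and SEMA3C encodes a secreted semaphorin, a guidance ligand read by neuropilins and plexins.

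RefSeq promoter sequences on GRCh38.p14 were matched by symbol for 4 of the 5 genes, and the 250 bases before a start are shown because H3K27ac peaks were wider in FHT-1015 around 4 of these 5 starts while the outer SEMA3C start had no peak of any antibody. Each is written 5′ to 3′ on the strand of its gene, in lower case, and capitals mark the AP-2 letters GCCNNNGGC. The PCDH7 promoter is chr4:30720119-30720368 on the plus strand, and the KCNQ5 promoter is chr6:72621814-72622063 on the plus strand. The RPS6KA3 promoter is chrX:20267091-20267340 on the minus strand, the outermost of 2 starts listed for the gene. SEMA3C also has 2 listed starts on the minus strand, with an outer promoter at chr7:80922390-80922639 and an inner one at chr7:80919052-80919301.
PCDH7: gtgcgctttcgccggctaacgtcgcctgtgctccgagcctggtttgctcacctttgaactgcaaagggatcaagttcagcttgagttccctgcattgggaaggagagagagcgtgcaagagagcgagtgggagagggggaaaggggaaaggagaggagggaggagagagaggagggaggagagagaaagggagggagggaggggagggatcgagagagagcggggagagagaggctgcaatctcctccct
RPS6KA3: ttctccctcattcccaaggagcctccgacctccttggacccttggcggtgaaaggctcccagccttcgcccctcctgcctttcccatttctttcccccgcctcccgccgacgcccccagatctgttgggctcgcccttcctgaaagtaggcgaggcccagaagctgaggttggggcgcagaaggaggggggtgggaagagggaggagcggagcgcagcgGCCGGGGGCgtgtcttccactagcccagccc
KCNQ5: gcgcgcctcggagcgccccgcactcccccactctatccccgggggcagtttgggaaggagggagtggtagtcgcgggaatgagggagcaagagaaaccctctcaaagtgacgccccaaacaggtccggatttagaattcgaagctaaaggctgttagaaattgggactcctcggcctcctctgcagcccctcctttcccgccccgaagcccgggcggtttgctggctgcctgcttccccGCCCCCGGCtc
SEMA3C outer: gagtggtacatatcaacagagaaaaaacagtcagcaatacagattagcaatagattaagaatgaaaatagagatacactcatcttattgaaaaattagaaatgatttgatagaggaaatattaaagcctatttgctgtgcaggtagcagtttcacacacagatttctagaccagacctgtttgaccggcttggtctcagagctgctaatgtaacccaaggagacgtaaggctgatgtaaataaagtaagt
SEMA3C inner: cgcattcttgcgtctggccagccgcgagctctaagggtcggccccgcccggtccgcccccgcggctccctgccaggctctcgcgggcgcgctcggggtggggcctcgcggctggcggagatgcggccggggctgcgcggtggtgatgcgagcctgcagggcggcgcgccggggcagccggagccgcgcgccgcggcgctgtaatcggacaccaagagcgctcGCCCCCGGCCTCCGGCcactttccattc

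GC content was 59.6% at PCDH7, 66.8% at RPS6KA3, 64% at KCNQ5 and 77.6% at the inner SEMA3C start, against a median of 58% over all 35116 promoters in the table. The outer SEMA3C start was the exception at 36.4%. The AP-2 letters, searched on both strands, occurred once each at RPS6KA3 and KCNQ5 and as 2 overlapping matches at the inner SEMA3C start, and 19.8% of all promoters of this length held them. Neither the SOX letters ACAAAG and ACAATG, held by 13.7% and 9.29% of all promoters, nor the MITF letters CACGTG (6.34%) and CATGTG (9.42%), nor the AP-1 letters TGANTCA (6.57%) occurred in these 5 windows.

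H3K27ac coverage went up by 22.7 to 33.9 kb in each of the 5 genes in the narrow lists, which is the measure that chose them and is given as a description. HMCN1 (chr1:185734391-186190949, 456.559 kb) had 47.2 kb under narrow H3K27ac peaks in DMSO and 81.1 kb in FHT-1015. PCDH7 (chr4:30720369-31146800) went from 69.5 to 100.7 kb and had the most acetylated length of the 5 in both conditions. RPS6KA3 (chrX:20149911-20267097), the shortest of the 5 at 117 kb, went from 26.0 to 55.2 kb, the highest ratio of the group at 2.12. In FHT-1015 47.1% of its gene body lay under a peak, against 22.2% in DMSO. KCNQ5 (chr6:72622064-73198853), the longest at 576.79 kb, went from 45.1 to 68.0 kb, and SEMA3C (chr7:80742538-80922389) from 26.5 to 49.3 kb.

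Coverage at least 1.5 times higher in FHT-1015 was reached by 4 of the 5 genes and by 7.76% of the 13562 genes with an H3K27ac narrow peak in either condition. PCDH7 missed that fold with a ratio of 1.45. The remaining ratios were 1.72 for HMCN1, 1.86 for SEMA3C and 1.51 for KCNQ5. With only peaks of a −log10 p of at least 10, the strength the peak caller gave each peak, 2 of the 5 reached that fold, RPS6KA3 and SEMA3C, while HMCN1 had a ratio of 1.44 and KCNQ5 1.39. Most genes moved the other way: 8565 had less covered length in FHT-1015, 4862 had more, the median change was -0.156 kb, and 28.0% were at least 1.5 times lower. Genes just below the 5 in gain were PAG1 (17.9 kb), SOX6 (17.8 kb), MITF (16.7 kb), RASAL2 (16.0 kb) and SEMA3A (15.8 kb), the genes most like them by this measure. Gain in kb favours long genes, and by gain as a percent of gene length the ranks were 19 for RPS6KA3, 83 for SEMA3C, 220 for HMCN1, 225 for PCDH7 and 514 for KCNQ5.

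**Figure D1:**
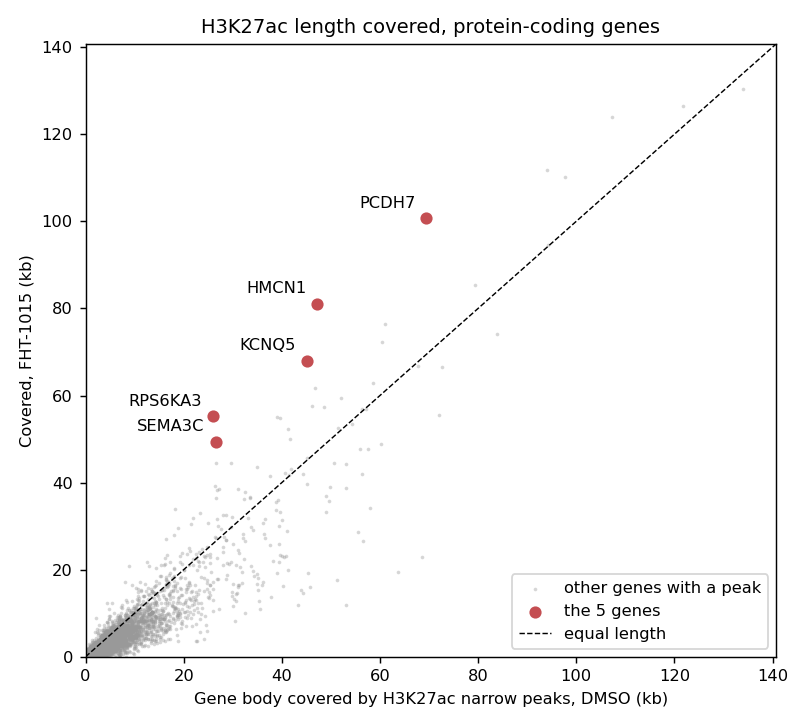
Length of each protein-coding gene covered by narrow H3K27ac peaks in DMSO (x axis, kb) and FHT-1015 (y axis, kb), with the dashed line marking equal length. The 5 genes, in red, lie above the line by 22.7 to 33.9 kb, and most other genes (grey) lie below it.

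The broad lists, in which the caller joins neighbouring enriched stretches, showed the same 5 genes among the 6 largest gains. Broad coverage went from 53.0 to 102.5 kb in HMCN1, from 82.4 to 126.6 kb in PCDH7 and from 33.2 to 65.4 kb in RPS6KA3. In KCNQ5 it went from 57.8 to 83.2 kb, the sixth gain by rank, and in SEMA3C from 30.4 to 62.0 kb. A ratio of at least 1.5 in the broad lists was reached by the 4 genes other than KCNQ5 (1.44), against 7.23% of all genes with a broad peak. Both list types come from the same pair of libraries, so the broad values are no independent repeat.

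Acetylated bases present in DMSO were largely kept. Of the DMSO narrow length, SEMA3C kept 99.6%, HMCN1 96.2%, PCDH7 94.2% and RPS6KA3 94.1%, while KCNQ5 kept 84.7%, the lowest of the 5. Over the whole H3K27ac list 64.8% of the DMSO length was kept. The genes were chosen by net gain in these same lists, which favours a high kept share, so the contrast is a description. SEMA3C lost 0.113 kb and KCNQ5 lost 6.88 kb. Of the 54 DMSO peaks of KCNQ5, 35 overlapped an FHT-1015 peak and 19 did not. Over the whole list 59.3% of DMSO peaks overlapped one.

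New acetylated bases took 2 forms: flanks added to DMSO peaks, and islands, which are FHT-1015 peaks that share no base with a DMSO peak. HMCN1 gained 12.8 kb beside DMSO peaks and 23 kb in 58 islands. PCDH7 gained 14 kb beside DMSO peaks and 21.2 kb in 58 islands. RPS6KA3 was the one gene with more in flanks than in islands, at 15.8 kb against 14.9 kb in 37 islands. KCNQ5 gained 10.7 kb beside peaks and 19.1 kb in 50 islands, and SEMA3C 6.86 kb and 16.0 kb in 41 islands. Islands therefore held 48.5% (RPS6KA3) to 70.0% (SEMA3C) of the gained length, against 38.8% over the whole list.

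**Figure D2:**
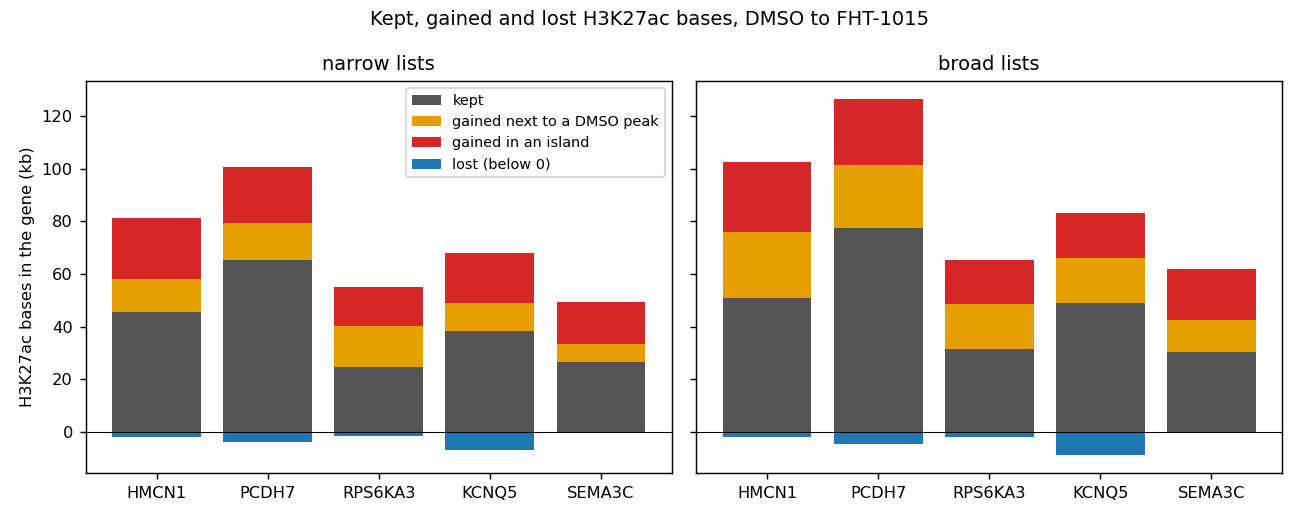
H3K27ac bases (kb, y axis) in each gene in narrow (left) and broad (right) lists, split into bases kept from DMSO, gained next to a DMSO peak, gained in an island and, below 0, lost. Kept bases form the largest block in all 5 genes, the lost block is at most 8.84 kb (KCNQ5, broad), and flanks take a larger share of the gain in the broad lists of HMCN1, PCDH7, KCNQ5 and SEMA3C.

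Most gained bases lay within 5 kb of acetylation already present, from 78.7% in SEMA3C to 89.2% in RPS6KA3. Their median distances were nevertheless larger than that of the whole list. The median distance of a gained base to the nearest DMSO peak was 0.732 kb in RPS6KA3, 0.783 kb in KCNQ5, 0.786 kb in PCDH7, 1.48 kb in HMCN1 and 1.49 kb in SEMA3C. Over the whole list it was 0.208 kb. Beyond 10 kb from any DMSO peak lay 0% of the gained bases of RPS6KA3 and 10.9% of those of SEMA3C, the highest of the 5. Over the whole list this share was 11.1%. The 244 islands were small and weak by the authors' −log10 p: median widths were 296 bp (PCDH7) to 359 bp (SEMA3C), 105 islands reached a −log10 p of 5, and 13 reached 10.

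The number of H3K27ac peaks was higher in FHT-1015 in all 5 genes, as in 12.2% of the genes with at least 10 DMSO peaks. It went from 28 to 77 in HMCN1, from 56 to 91 in PCDH7, from 37 to 52 in RPS6KA3, from 54 to 82 in KCNQ5 and from 21 to 50 in SEMA3C. Strong peaks, those with a −log10 p of at least 10, numbered 63 in DMSO and all 63 overlapped an FHT-1015 peak (whole list 87.6%). Of these, 54 were wider in FHT-1015 (whole list 45.9%) and 57 had a higher −log10 p (whole list 61.1%). Peak number and width make up the covered length that chose the genes, so these contrasts are descriptions. Depth relative to DMSO, recovered from the peak values, was 1.05 for the FHT-1015 H3K27ac library, and its part in these counts was not tested.

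Acetylation spread at different places in the 5 genes, seen when each body was divided into 10 equal parts from start to end. HMCN1, whose strand is not in the annotation table, was read from its boundary of lower coordinate. Its largest gain was in part 2, which had 6.27 kb covered in DMSO and 18.9 kb in FHT-1015, 37.3% of the net gain of the gene. In PCDH7 the gain lay toward the far end: part 8 went from 8.86 to 18.3 kb and part 9 from 11.8 to 18.9 kb. The PCDH7 start region changed less, with 8.10 kb in part 1 in DMSO and 10.0 kb in FHT-1015.

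In the narrow lists RPS6KA3 gained most in part 4, from 3.51 to 9.94 kb (broad lists: part 5), and its part 1 went from 10.4 kb to 11.7 kb, which is the whole of that part. KCNQ5 gained at its start: part 1 went from 9.94 to 19.9 kb and held 43.7% of the net gain. Its 5 parts farthest from the start held little acetylation in either condition, and part 9 had 1.76 kb in DMSO and 0.958 kb in FHT-1015. SEMA3C gained in all 10 parts, most in part 3 of the narrow lists, from 4.68 to 9.30 kb (broad lists: part 2), and the 3 parts that gained most held 52.8% of its net narrow gain. PCDH7 and RPS6KA3 likewise gained in 10 of 10 parts of the narrow lists, HMCN1 in 9 and KCNQ5 in 8.

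**Figure D3:**
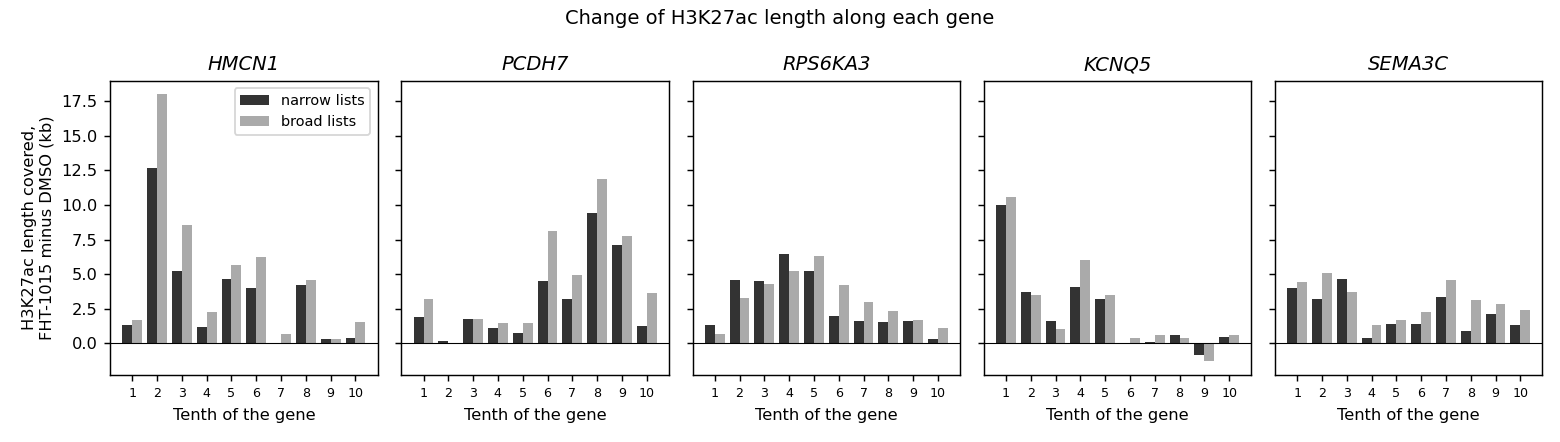
Change of H3K27ac length covered (FHT-1015 minus DMSO, kb, y axis) in 10 equal parts of each gene (x axis, from the start; HMCN1 from its boundary of lower coordinate), for narrow (dark) and broad (light) lists. The largest narrow bars are part 2 of HMCN1 (12.7 kb), part 1 of KCNQ5 (10.0 kb) and part 8 of PCDH7 (9.45 kb), and part 9 of KCNQ5 is below 0.

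Single domains showed widening and the joining of neighbouring DMSO peaks. Around the RPS6KA3 start the DMSO list had a domain at chrX:20259507-20266709 (7.20 kb, −log10 p 144) and, beside it, a small peak over the promoter printed above. In FHT-1015 both lay within 1 domain of 16.1 kb at chrX:20251554-20267628 (−log10 p 268). That domain also took in further DMSO peaks, 7.747 to 14.596 kb from the gene start, and much of its length was already covered in DMSO. Around the KCNQ5 start the domain went from 9.12 kb (chr6:72615998-72625119) to 11.3 kb (chr6:72615837-72627113), with −log10 p of 186 and 334. The PCDH7 start domain went from 9.82 to 12.4 kb and took in a DMSO peak 6.868 to 7.708 kb from the gene start. A second PCDH7 domain near the far end of the gene went from 13.5 kb (chr4:31103394-31116902) to 15.6 kb (chr4:31101406-31117021). That change was mainly a join with a neighbouring DMSO peak, across a gap from 382.942 to 383.025 kb. At the inner SEMA3C start DMSO had a peak of 0.537 kb (−log10 p 11.8), with a second peak beside it, 3.355 to 4.05 kb from the gene start. In FHT-1015 both lay within 1 peak of 2.07 kb (−log10 p 123). In HMCN1 the strongest peak lay inside the body, and went from 5.25 kb (chr1:185787257-185792503, −log10 p 248) to 7.08 kb (chr1:185786619-185793698, −log10 p 357). The FHT-1015 peak also took in a small DMSO peak 58.241 to 58.481 kb from the boundary of lower coordinate.

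Outside the genes, the 100 kb past the end of SEMA3C held 11.4 kb in DMSO and 24.1 kb in FHT-1015, and that past PCDH7 held 14.3 and 21.6 kb. CD36, a scavenger receptor gene 63.3 kb from SEMA3C, went from 26.4 to 39.2 kb, and GNAT3 from 14.4 to 20.3 kb. The 100 kb stretches on the KCNQ5 sides were nearly level, at 6.07 and 6.23 kb before the start and 1.38 and 1.22 kb after the end. EIF1AX, which lies 8.07 kb from RPS6KA3 and encodes a translation initiation factor, went from 1.12 to 2.68 kb.

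**Figure D4:**
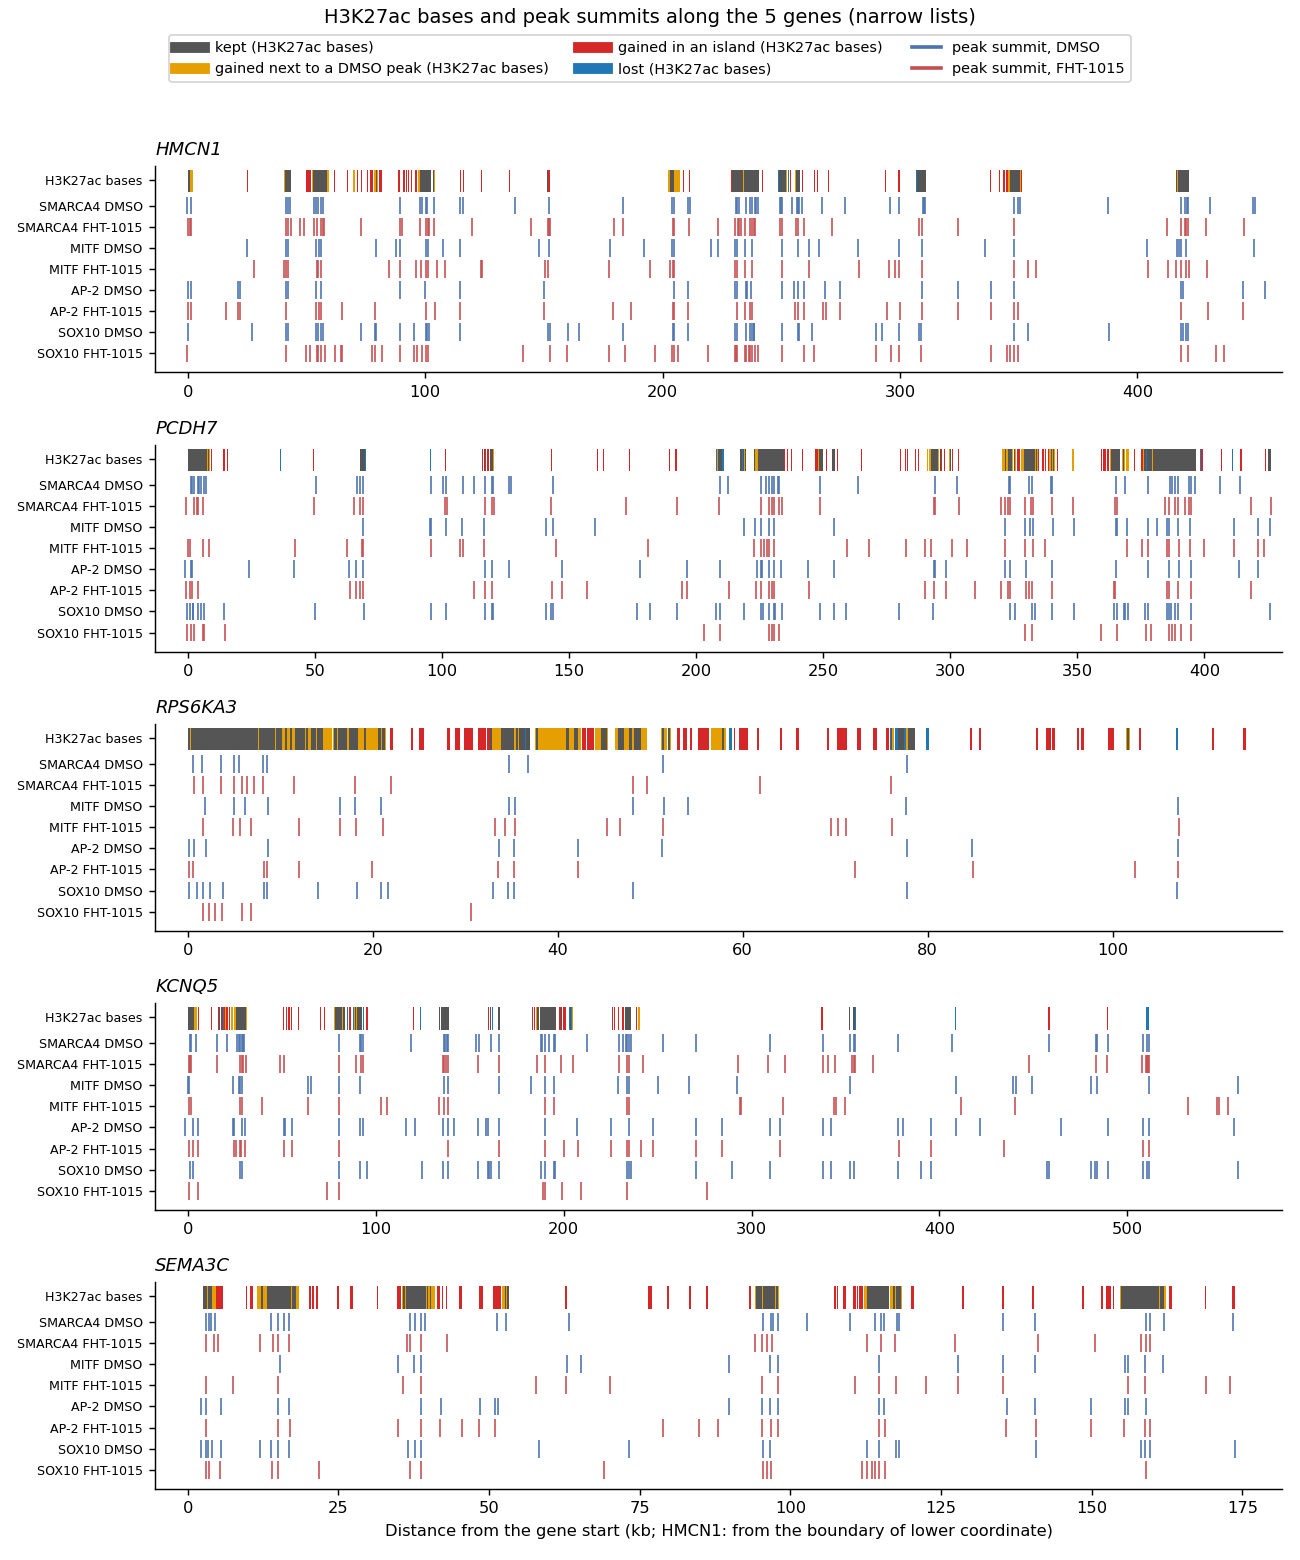
Maps of the 5 genes (x axis, distance from the gene start in kb; HMCN1 from its boundary of lower coordinate). The top lane of each shows H3K27ac bases that were kept, gained or lost in the narrow lists. The ticks show the summits of SMARCA4, MITF, AP-2 and SOX10 peaks in DMSO (blue) and FHT-1015 (red), which are densest on the kept bases. SOX10 ticks are fewer in FHT-1015 in PCDH7, RPS6KA3, KCNQ5 and SEMA3C but not in HMCN1.

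The 4 chromatin-bound proteins were measured with antibodies the choice of genes did not use. SMARCA4, the target of the inhibitor, had 60 peaks in HMCN1 in DMSO and 58 in FHT-1015, 54 and 48 in PCDH7, 11 and 15 in RPS6KA3, 53 and 46 in KCNQ5, and 32 and 24 in SEMA3C. The number was higher in FHT-1015 in 1 of the 5 genes, RPS6KA3, and among genes with at least 10 DMSO peaks this share was 15.8%. It was lower in the other 4, against 78.1%. Together the genes had 210 and 191 peaks (ratio 0.910, whole list 0.880), and 57.6% of the DMSO peaks (95% Wilson interval 50.9 to 64.1) overlapped an FHT-1015 peak, against 52.0% of the list. The direction of the total turned with the list used: strong peaks numbered 38 and 40, and broad peaks 196 and 204. Wilson intervals here and below cover counting error over peaks of 1 pair of libraries only.

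Of the 38 strong SMARCA4 peaks in DMSO, 36 overlapped an FHT-1015 peak (whole list 85.2%). The strongest in HMCN1 in DMSO lay at chr1:185971537-185972872 (−log10 p 67.0), and the strongest in FHT-1015 at chr1:185789156-185790972 (72.2), inside its strongest acetylated domain. In SEMA3C the strongest site was the same in both conditions, 38.7 kb from the start, with −log10 p of 42.8 in DMSO and 68.3 in FHT-1015. RPS6KA3, with no strong SMARCA4 peak in DMSO and 1 in FHT-1015 (chrX:20218338-20219257, −log10 p 11.1), had the fewest SMARCA4 peaks of the 5 genes. It is also the shortest, and per 100 kb it had 9.39 peaks in DMSO and 12.8 in FHT-1015. The other genes had 9.19 (KCNQ5) to 17.8 (SEMA3C) in DMSO and 7.98 (KCNQ5) to 13.3 (SEMA3C) in FHT-1015. Broad SMARCA4 coverage was 34.9 and 39.3 kb in HMCN1, 39.5 and 32.1 kb in PCDH7, 7.88 and 8.36 kb in RPS6KA3, 32.1 and 26.8 kb in KCNQ5 and 20.7 and 19.3 kb in SEMA3C.

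MITF, the master regulator of pigment cells, had 40 peaks in HMCN1 in DMSO and 45 in FHT-1015, 33 and 42 in PCDH7, 14 and 19 in RPS6KA3, 31 and 28 in KCNQ5, and 17 and 20 in SEMA3C. The number was higher in 4 of the 5 genes, against 26.0% of genes with at least 10 DMSO peaks. Strong MITF peaks went from 50 to 36 (ratio 0.72, whole list 0.409), and those reaching a −log10 p of 5 from 92 to 80. MITF peaks found in FHT-1015 only numbered 81, 52.6% of those of the 5 genes in FHT-1015 (whole list 64.8%). They had a median −log10 p of 4.18, and 1 of them, at the PCDH7 start, was strong (11.1). Of all DMSO peaks 54.1% (45.7 to 62.3) overlapped an FHT-1015 peak (whole list 36.2%), and of the strong ones 40 of 50 did (whole list 61.7%). The MITF library of FHT-1015 had a depth of 0.853 relative to DMSO, and its part in these counts was not tested.

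The strongest MITF site of each gene was the same in both conditions. In HMCN1 it lay at chr1:186082055-186082736 with a −log10 p of 309 and a fold enrichment of 30.0 in DMSO, and 348 and 36.0 in FHT-1015. In SEMA3C it lay at chr7:80762886-80764047, with 270 and a fold of 27.2 in DMSO and 366 and 47.8 in FHT-1015. The strongest PCDH7 site had 237 and 254, and the strongest KCNQ5 site 194 and 220. RPS6KA3 had no site of that strength, with a highest −log10 p of 18.3 in DMSO and 13.8 in FHT-1015. Values of different lists are set side by side here as the authors gave them and depend on depth.

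AP-2 had 33 peaks in HMCN1 in DMSO and 40 in FHT-1015, 37 and 41 in PCDH7, 11 and 13 in RPS6KA3, 43 and 29 in KCNQ5, and 22 and 23 in SEMA3C. The number was higher in 4 of the 5 genes, against 20.0% of genes with at least 10 DMSO peaks, and KCNQ5 was the exception. With a −log10 p of at least 5 it was lower in all 5 genes, 111 peaks in DMSO and 90 in FHT-1015 together. The total was 146 in both conditions, and 67.8% of the DMSO peaks (59.9 to 74.8) overlapped an FHT-1015 peak, against 54.9% of the list. Strong AP-2 peaks went from 67 to 56 (ratio 0.836, whole list 0.600), from 17 to 16 in HMCN1, 17 to 12 in PCDH7, 4 to 6 in RPS6KA3 and 19 to 12 in KCNQ5, with 10 in both conditions in SEMA3C. Over the KCNQ5 start, where the printed promoter holds the AP-2 letters near its 3′ end, the AP-2 peak had a −log10 p of 69.7 in DMSO and 103 in FHT-1015. Over the inner SEMA3C start it had 71.4 and 95.1, over the PCDH7 start 29.1 and 27.8, and over the inner of the 2 RPS6KA3 starts, whose promoter also holds the letters, 6.55 and 6.05.

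SOX10 had the lowest ratio of peak number of the 4 proteins over the 5 genes together. It had 48 peaks in HMCN1 in DMSO and 56 in FHT-1015, but 55 and 23 in PCDH7, 17 and 7 in RPS6KA3, 42 and 10 in KCNQ5, and 25 and 19 in SEMA3C. Together the genes had 187 and 115 peaks (ratio 0.615, whole list 0.322), and 33.7% of the DMSO peaks (27.3 to 40.7) overlapped an FHT-1015 peak, against 18.3% of the list. By gene, 28 of 48 overlapped one in HMCN1, 11 of 25 in SEMA3C, 16 of 55 in PCDH7, 4 of 17 in RPS6KA3 and 4 of 42 in KCNQ5.

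HMCN1 was 1 of 10 genes with more SOX10 peaks in FHT-1015 among the 1326 genes with at least 10 DMSO peaks (0.754%), and 99.2% had fewer. The other genes, named after their values were seen, were CAPZA1, CD36, CSMD1, NSUN6, PCCA, PTPRS, RNF145, RTTN and ZC3H13. CD36, the SEMA3C neighbour, had 11 and 13 SOX10 peaks. Of the 56 FHT-1015 peaks of HMCN1, 29 were found in FHT-1015 only, and over the whole SOX10 list this share was 38.5%. These added HMCN1 peaks were weak, with a median −log10 p of 3.76, and 9 of them lay over an H3K27ac island. Strong SOX10 peaks of HMCN1 went from 19 to 11, those of the 5 genes together from 70 to 28 (ratio 0.4, whole list 0.117). When the DMSO list was shortened to its strongest peaks so that both lists had equal number, the 5 genes had 60 and 115 SOX10 peaks, so the direction of the total turned, as it did in PCDH7, RPS6KA3 and SEMA3C. The SOX10 list of FHT-1015 did not allow its depth to be recovered in the way used for the other 9 lists.

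**Figure D5:**
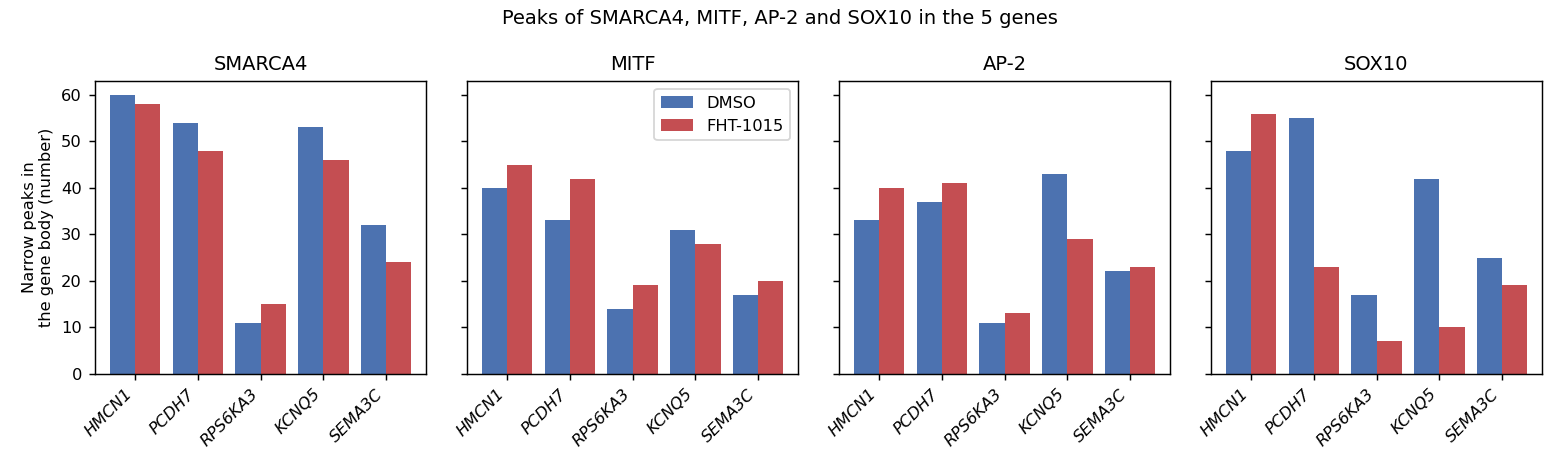
Number of narrow peaks touching each gene body (y axis) for SMARCA4, MITF, AP-2 and SOX10 in DMSO (blue bars) and FHT-1015 (red bars), 1 library per bar. SOX10 bars go from 42 to 10 in KCNQ5 and from 55 to 23 in PCDH7 but from 48 to 56 in HMCN1, while bars of the other antibodies differ by at most 14 peaks.

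Sites shared by all 4 proteins differed in what they kept. At 348 kb in HMCN1, SMARCA4, MITF, AP-2 and SOX10 peaks lay over one another in both conditions. There SOX10 had a −log10 p of 121 in DMSO and 104 in FHT-1015, AP-2 had 117 and 145, and the H3K27ac peak over them had 139 and 195. At 80.6 kb in KCNQ5, SOX10 had its strongest DMSO peak of the gene (−log10 p 165, fold 28.2) and had 67.1 with a fold of 14.9 in FHT-1015. MITF at that KCNQ5 site had 121 and 127.

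At 77.7 kb in RPS6KA3, by contrast, the DMSO peaks of all 4 proteins were lost. In its own list AP-2 had a −log10 p of 42.2 there (chrX:20189194-20189559), SOX10 13, SMARCA4 7.74 and MITF 3.84. The H3K27ac peaks next to that RPS6KA3 site had −log10 p of 22.2 and 14 in DMSO and 5.68 and 3.29 in FHT-1015, although each of the 10 parts of the gene had more covered length in FHT-1015. Near 76.1 kb, SMARCA4 (4.78) and MITF (5.22) had weak peaks in FHT-1015 alone.

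Along the genes, factor summits were densest on acetylation that was kept. By share, kept bases held 64.6% of SMARCA4 summits in DMSO and 60.5% in FHT-1015, and 55.1% and 60.2% of SOX10 summits. For MITF the shares were 52.2% and 45.5%, and for AP-2 44.4% and 43.4%. SMARCA4 had 67.5 summits per 100 kb of kept bases in DMSO, 14.9 in the bases that later became islands and 3.31 in bases with no H3K27ac peak in either condition. In FHT-1015 the SMARCA4 densities were 57.5, 13.8 and 3.03. MITF had 35.0, 9.56 and 2.88 in DMSO and 35.0, 14.9 and 4.25 in FHT-1015. AP-2 had 32.0, 10.6 and 3.96 in DMSO and 31.5, 8.50 and 4.18 in FHT-1015. SOX10 went from 51.0 to 34.0 on kept bases, from 12.7 to 19.1 in islands and from 3.31 to 1.44 where no H3K27ac peak lay. On the 14.3 kb of lost bases the DMSO densities were 48.8 for SOX10 (7 summits), 27.9 for SMARCA4, 20.9 for MITF and 6.98 for AP-2. Bases gained next to a DMSO peak had 16.6 in DMSO and 24.9 in FHT-1015 for SMARCA4, and 20.0 and 15.0 for MITF. There AP-2 had 23.3 and 26.6, and SOX10 29.9 and 11.6. The SOX10 difference in islands was that of HMCN1, with 6 summits in DMSO and 12 in FHT-1015, while the other 4 genes together had 6 in both. The classes were set by the H3K27ac lists of both conditions, so these shares and densities are descriptions.

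For each of the 4 proteins, most islands carried no peak. The same shares over all islands of the H3K27ac list were not computed. The islands were short, and per 100 kb they held more summits of each protein than bases with no H3K27ac peak, as given above. Of the 244 islands, 23 overlapped a SMARCA4 peak in DMSO and 16 in FHT-1015, 11 and 13 a MITF peak, 15 and 16 an AP-2 peak, and 20 and 18 a SOX10 peak. HMCN1 held 12 of the 18 islands with a SOX10 peak in FHT-1015. The strongest island of each gene, with −log10 p of 10.4 (RPS6KA3) to 15.5 (SEMA3C), had no peak of the 4 proteins in PCDH7, RPS6KA3 or KCNQ5, a SOX10 peak in HMCN1 and an AP-2 peak in SEMA3C.

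Relatives of the 5 genes did not share one direction. The counts below leave out the 5 genes, which were chosen by this measure. Of the 6 other class 3 semaphorin genes, 2 had coverage at least 1.5 times higher, 2 at least 1.5 times lower and 2 no peak, beside 7.76% higher and 28.0% lower over all genes. SEMA3A went from 18.2 to 34.0 kb and SEMA3D from 5.34 to 12.4 kb, while SEMA3B went from 6.51 to 1.74 kb and SEMA3E from 4.94 to 1.97 kb. Of the 8 genes for their receptors, 7 had a peak, none was at least 1.5 times higher and 4 were lower: NRP2 (14.2 to 5.29 kb), PLXNA1 (7.14 to 2.10 kb), PLXNA4 (14.4 to 4.02 kb) and PLXND1 (1.10 to 0.301 kb). Over genes with a peak, these semaphorin genes had a median change of 2.03 kb and the receptor list of -5.04 kb.

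Among the 5 other RSK and MSK kinase genes, 1 was at least 1.5 times higher and 3 lower (median -0.564 kb), with RPS6KA6 at 3.23 and 4.99 kb and RPS6KA2, which encodes RSK3, at 7.44 and 1.57 kb. Of the 4 other KCNQ channel genes, 3 had a peak and all 3 were at least 1.5 times lower (median -1.18 kb), and KCNQ1, the cardiac and epithelial subunit, had 8.53 kb in DMSO and 2.73 kb in FHT-1015. Of the 10 other non-clustered protocadherin genes 6 had a peak (median 0.0445 kb), 1 at least 1.5 times higher and 1 lower, and PCDH9 went from 16.0 to 21.1 kb. HMCN2, the other hemicentin gene, had 0.209 kb in DMSO and no peak in FHT-1015.

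Marker genes were checked because the labels name a pigment cell line. All 7 pigment cell genes checked had H3K27ac peaks, and 6 of 7 genes of other cell types had none. The exception was PTPRC with 1.28 kb in DMSO and 2.30 kb in FHT-1015. Of all 20052 protein-coding genes, 13562 had a peak in either condition, so a peak in a pigment cell gene says little by itself. Among the pigment cell genes SOX10 itself went from 11.0 to 3.90 kb and DCT, a melanin synthesis enzyme, from 5.05 to 0.843 kb, while TYRP1 was covered over 16.9 kb in both. Of the 3 control genes, ACTB had 2.82 and 2.93 kb, GAPDH 3.86 kb in both and TBP 1.32 and 0.957 kb (ratio 0.724). Over the genome the H3K27ac narrow list had 68093 peaks over 68.2 Mb in DMSO and 48103 over 52.1 Mb in FHT-1015. Depth in FHT-1015 relative to DMSO was 0.853 to 1.05 for the 4 antibodies where it was recovered.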

How the data were processed

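ChIP-seq peak lists of 10 libraries were analysed: 10 narrow lists, and broad lists for the 4 H3K27ac and SMARCA4 libraries. The input library was not analysed here. BWA, SAMtools, Picard, MACS2 and the build hg38 are named in the submitters' processing notes, and versions are not given in the sources used here. The authors deposited for each peak a fold enrichment (a ratio over background), a −log10 p, a −log10 q, a summit and a score, which equalled 10 times −log10 p in narrow and 10 times −log10 q in broad lists. These values ranked or filtered peaks inside each list, with the same cut-off in both lists of a pair. For strong H3K27ac peaks the −log10 p was also compared with that of the overlapping FHT-1015 peak. Values of 2 lists given together are as deposited, and they and the comparisons depend on the depth of each library. Each list was made from 1 library. Read totals were not given, so relative depth was recovered from the fold and −log10 p of 4000 peaks a list, as whole reads over a Poisson background (tolerance 0.002).

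Python 3.11.15, pandas 2.3.3, numpy 2.4.6, scipy 1.17.1 and matplotlib 3.10.9 were used. Repeated entries of 1 peak interval were merged, covered length is the union of peaks within the RefSeq GRCh38.p14 gene extent, and a retained peak shares at least 1 bp with a peak of the other condition. Exons and introns were not analysed here. The interval code was tested on simulated data, with 0 errors in 800 checks. Genes named were the 5 members, the 5 with the next largest gain, and family, receptor, marker and control lists; peaks named were mainly the strongest and longest in each gene, and the shared sites were picked around those. Members, lists and rules were chosen with earlier results of these data known. Alternatives were other thresholds on −log10 p or q, lists of equal number, broad lists, other gene extents, joined peaks and other overlap rules.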

Additional observations from a re-analysis of the deposited data

How the results depend on the processing

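No paired analysis was possible because each antibody had 1 library per condition. H3K27ac coverage of the 5 genes together, 1.65 times higher in FHT-1015, was between 1.51 and 1.85 times higher under 8 alternatives, and above 1 in each gene under all 8. Genes at least 1.5 times higher, 4 in the main lists, numbered 2 with a −log10 p of at least 10, 3 with 10 kb added to or 5 kb taken from the gene ends, and 5 with lists of equal number. For peak number, the ratio of the 5 genes together turned for SMARCA4, to 1.05 with a −log10 p of at least 10, 1.08 with lists of equal number and 1.04 in broad lists. For MITF it turned to 0.870 with a −log10 p of at least 5 and 0.72 with at least 10. For SOX10 it was 0.4 with a −log10 p of at least 10 and turned to 1.92 with lists of equal number, as did PCDH7 (1.35), RPS6KA3 (2.33) and SEMA3C (2.11). For AP-2 it was 1, and 0.811 with a −log10 p of at least 5, 0.836 with at least 10 and 1.20 with lists of equal number. The retained share of SMARCA4 was 48.1% when 50% of a peak had to be covered, 39.5% for summits within 200 bp and 73.7% with a −log10 p of at least 10, where that of MITF was 64%. Of all genes with a peak, 4.05% were at least 2 times higher in H3K27ac coverage and 16.7% at least 2 times lower, and 43.8% of genes of at least 100 kb were at least 1.5 times lower. Of 84 peak numbers of single genes under alternatives, 67 stayed within 1.5 times, and 23 lay on the other side of 1 (6 for SMARCA4, 7 for MITF, 6 for AP-2 and 4 for SOX10). The cause was not tested. Without replicates, the spread between cultures is unknown.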
